A study of Rattus norvegicus with 2 samples.

Results

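The hypothalamus of tickled rats was set against that of lightly touched rats on 1 two-colour oligonucleotide array, which is 1 of the 2 arrays of the series. Every probe with a deposited ratio entered, and a gene's value is the median over the probes that share its single platform symbol. This gave 11745 genes out of the 12092 that had a value on either array, from 30133 of 44290 probes (68.0%). The other array, tickled over no stimulus, had 11881 genes and is used here only for values set side by side.

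All groups were male Wistar rats that were 21 days old at the start and were housed singly behind screens. Tickled rats received a hand stimulation that imitates rough-and-tumble play and evokes calls near 50 kHz, a positive emotional response. Lightly touched rats were handled on the same schedule with a milder stimulus that in general evoked no such calls, and rats without stimulus were not stimulated. Both stimuli were applied every weekday over 4 weeks, in 2 rounds of 4 cycles per session, with 15 s of rest before each 15 s of touch. There were 4 animals in each of the 3 conditions, and the design text speaks of 1 replicate per array. Whether an array carried the RNA of 1 animal or of a pool is not stated. The comparison of tickling with light touch addresses what differs between 2 kinds of touch when handling itself is shared.

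Per the labels, 500 ng of total RNA per sample was amplified, the tickled sample was coupled to Cy5 and the lightly touched sample to Cy3. The file does not state which dye is in the numerator. Ratios are read here as tickled over light touch, the likely direction, because red over green is the usual form. With light touch in the numerator, every value given here would be inverted. No array with the dyes exchanged and no replicate array of this comparison was analysed, so no value can be set against variation between animals and no test was made. The number of arrays limits the precision of every value. Only ratios are deposited, so neither the level of a gene nor its distance from background is known.

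The hypothalamus lies on the floor of the forebrain under the thalamus and around the third ventricle, and it controls feeding, body temperature, the pituitary, reproduction and social arousal. Its neurons are sorted into nuclei that use different neuropeptides, which are cut from precursor proteins and stored in secretory granules. Small sets of homeodomain and LIM transcription factors mark these nuclei, whereas the adjoining thalamus, habenula and septum carry other sets. In RNA from a whole tissue piece, fewer cells of a type and less RNA per cell cannot be told apart.

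The labelled tissue was checked against 12 defining genes of hypothalamus. A value was present for 11 of them, all but Sim1, with ratios of 1.11 to 2.13. Since signal levels are not in the file, this shows only that the probes gave a ratio. Defining genes of neighbouring tissues also had values, including 4 of 5 for thalamus, 2 of 5 for medial habenula, 4 of 5 for basal forebrain cholinergic neurons and 4 of 5 for choroid plexus. RNA of these neighbours cannot be told from RNA of the hypothalamus by ratios alone.

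Genes with high and low ratios are introduced here with the sequence before their start sites. Th, Slc18a2 and Cartpt are shown because they are the genes at a ratio of 1.5 or more whose window held a full cyclic AMP response element. Pomc is shown as the highest gene of the melanocortin system. Zic4 and Cpne4 are low genes with concordant probes whose windows held a TCF/LEF site. Other low genes with concordant probes, such as Slc17a7 and Shox2, are not shown. Each window is the 250 bases before the start of the RefSeq gene on the GRCr8 assembly, written 5′ to 3′ on the gene's strand. Windows are Th (chr1:207508219-207508468, minus strand), Slc18a2 (chr1:268399771-268400020, plus strand), Cartpt (chr2:32991236-32991485, minus strand), Pomc (chr6:32659103-32659352, plus strand), Zic4 (chr8:100795852-100796101, plus strand) and Cpne4 (chr8:114055902-114056151, plus strand). Capitals mark the motifs that were searched on both strands, namely the response element TGACGTCA, the E-box CATCTG, the TCF/LEF site TCAAAG, the homeodomain core TAATTA and the TATA box TATAAA.
Th: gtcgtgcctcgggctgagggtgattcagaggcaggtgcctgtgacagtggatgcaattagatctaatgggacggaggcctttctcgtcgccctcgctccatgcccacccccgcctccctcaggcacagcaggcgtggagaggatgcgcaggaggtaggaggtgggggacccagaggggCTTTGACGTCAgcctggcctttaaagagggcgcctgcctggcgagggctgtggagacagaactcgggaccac
Slc18a2: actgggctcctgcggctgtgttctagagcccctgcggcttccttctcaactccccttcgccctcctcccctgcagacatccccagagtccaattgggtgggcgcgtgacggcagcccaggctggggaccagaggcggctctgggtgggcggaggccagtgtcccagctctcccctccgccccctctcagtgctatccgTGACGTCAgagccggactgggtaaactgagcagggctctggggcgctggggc
Cartpt: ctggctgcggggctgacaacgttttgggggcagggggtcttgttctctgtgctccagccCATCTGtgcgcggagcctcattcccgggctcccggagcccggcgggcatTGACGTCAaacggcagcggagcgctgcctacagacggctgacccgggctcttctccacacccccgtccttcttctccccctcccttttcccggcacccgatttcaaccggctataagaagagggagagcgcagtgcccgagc
Pomc: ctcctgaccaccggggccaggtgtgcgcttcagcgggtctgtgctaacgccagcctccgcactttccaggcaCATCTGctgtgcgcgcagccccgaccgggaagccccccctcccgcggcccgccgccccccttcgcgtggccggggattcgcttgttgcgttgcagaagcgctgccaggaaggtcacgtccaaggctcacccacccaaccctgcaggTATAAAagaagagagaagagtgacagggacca
Zic4: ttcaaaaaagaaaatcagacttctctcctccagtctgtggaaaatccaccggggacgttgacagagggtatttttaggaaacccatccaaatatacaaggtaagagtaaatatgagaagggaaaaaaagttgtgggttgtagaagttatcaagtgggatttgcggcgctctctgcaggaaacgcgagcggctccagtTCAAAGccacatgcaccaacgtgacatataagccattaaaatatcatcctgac
Cpne4: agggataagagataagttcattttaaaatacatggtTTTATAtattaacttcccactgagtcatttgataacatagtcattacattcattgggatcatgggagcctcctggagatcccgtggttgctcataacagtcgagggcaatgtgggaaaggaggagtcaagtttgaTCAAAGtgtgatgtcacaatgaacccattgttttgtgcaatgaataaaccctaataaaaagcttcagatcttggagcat

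The response element lay at -69 to -62 from the start in Th, at -52 to -45 in Slc18a2 and at -142 to -135 in Cartpt. It is the site bound by CREB, a factor that responds to cyclic AMP and calcium. In Th it overlapped a TCF/LEF site on the other strand at -72 to -67. Pomc held an E-box at -178 to -173, the kind of site bound by neuronal basic helix-loop-helix factors, and a TATA box at -32 to -27. Zic4 and Cpne4 each held a TCF/LEF site, at -53 to -48 and at -79 to -74, a site of the factor family to which Tcf7l2 and Lef1 belong.

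These matches are a description of letters and not of binding. Of all 33469 promoter windows in the RefSeq table, 1.59% held the response element, 14.0% the E-box, 13.9% the TCF/LEF site, 4.86% the homeodomain core and 12.9% the TATA box. Of the 153 genes at a ratio of 1.5 or more that had a window, 3 held the response element (1.96%), 17 the E-box (11.1%), 22 the TCF/LEF site (14.4%), 8 the homeodomain core (5.23%) and 26 the TATA box (17.0%). Of the 87 genes 1.5-fold or more below 1 with a window, 0 held the response element, 13 the E-box (14.9%), 9 the TCF/LEF site (10.3%), 2 the homeodomain core (2.3%) and 8 the TATA box (9.2%).

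Most genes lay close to 1. The 5th and 95th percentiles of the ratio over genes were 0.82 and 1.25, the 25th and 75th were 0.94 and 1.07, and the median log2 ratio was 0.01. Of all genes, 51.3% had a ratio above 1 and 46.1% below 1, and these shares and the median are the background for each gene list. The lists were chosen with earlier results of these data known, so their medians and ranks are descriptions only. Values of at least 2 were found for 41 genes (0.349%), and values of at most 0.5 for 26 (0.221%). At the smaller size, 184 genes (1.57%) reached 1.5 and 109 (0.928%) lay 1.5-fold or more below 1. Nearest to these limits were Cyp2a2 at 2.0 and Hsd3b5 at 1.99, Irx2 at 0.50 and Cck at 0.51, Or6c35 and Prss23, which both round to 1.5, and Wipi2 at 0.664 and Cfi at 0.67.

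Peptide genes of the arcuate nucleus, which senses energy stores and drives feeding and growth hormone release, had mostly high ratios. All 13 listed genes had a value. Of these, 10 lay above 1 (51.3% of all genes did) and 8 at 1.5 or more (1.57% of all genes). Their median log2 ratio was 0.65, where the median over all genes was 0.01. Of the 13, only 2 had several probes, Ghrh and Pcsk1n, with a median of 0.31. Both arms of the feeding circuit were among the 8. Pomc, the precursor of the satiety peptide alpha-MSH, was at 2.13 and Cartpt, made by the same neurons, at 1.94. Agrp, which blocks the alpha-MSH receptor and promotes feeding, was at 1.80, and Npy, made with it, at 1.59. The galanin-like peptide Galp was at 2.14. Growth hormone is driven by Ghrh, whose probes gave 1.79 and 1.38, and restrained by Sst, at 1.57, so the genes of both opposing hormones lay on the same side. Among peptides of the neurons that pace reproduction, Pdyn was at 1.57 and Kiss1 at 1.21, while Tac3, made by the same neurons, was at 0.84. The lowest arcuate peptide was Nmu, an appetite-reducing peptide, at 0.65.

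Set beside the no-stimulus array, where the same peptide list had a median log2 ratio of 0.19 over 12 genes, the values differed by gene. Galp was at 2.14 over light touch and 1.93 over no stimulus, and Pomc at 2.13 and 1.62. Agrp was at 1.80 over light touch and 1.35 over no stimulus, Ghrh at 1.57 and 1.13, and Npy at 1.59 and 1.14. Pdyn had 1.57 over light touch and 0.88 over no stimulus. Both arrays carried tickled RNA and may have carried the same preparation, which is not stated, so these pairs are given side by side only.

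The arcuate identity list, which holds transcription factors and hormone receptors of these neurons, was above 1 in 9 of 9 measured genes. Its median log2 ratio was 0.42, and Esr1, Nr5a2 and Prdm12 had no value. Bsx, a homeodomain factor of the Agrp neurons, was at 2.12. The ghrelin receptor Ghsr, the only gene of the 9 with several probes, had probes at 1.46 and 2.67. Otp, a factor needed for several peptide neurons, was at 1.61, Tbx3, which maintains the identity of arcuate neurons, at 1.39, and Isl1, which acts on Pomc expression, at 1.34. The leptin receptor Lepr was the lowest, at 1.01.

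**Figure D1:**
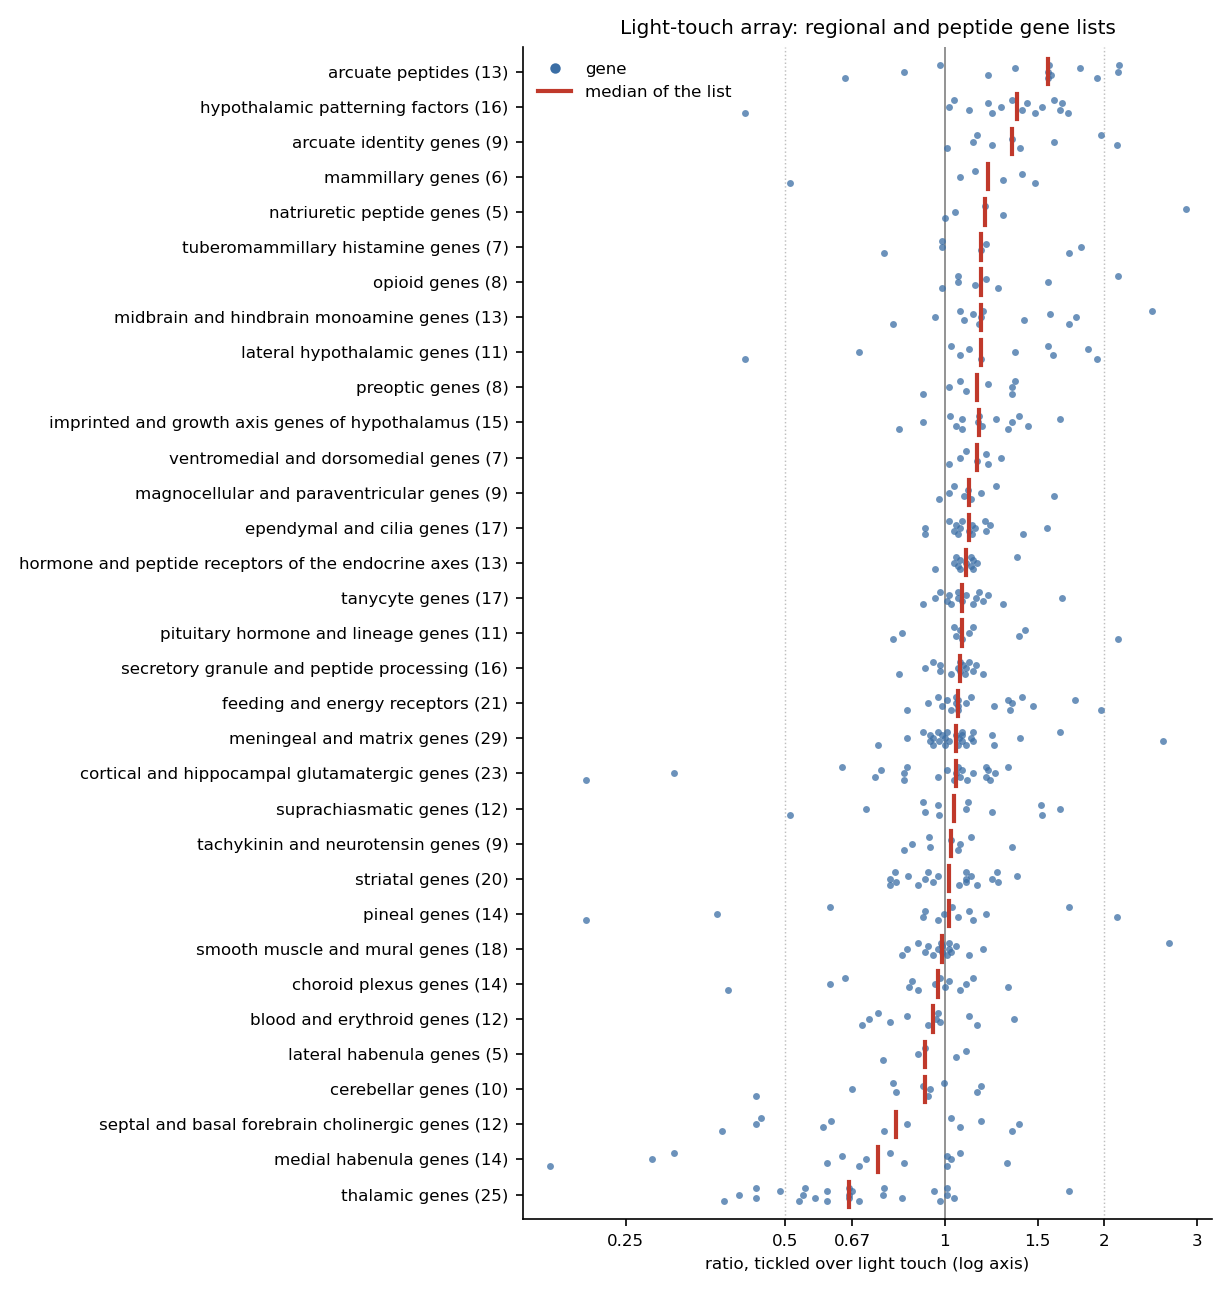
Ratios of tickled over light touch (log axis) for genes of regional and peptide lists, with 1 point per gene, the list's median as a bar and the number of measured genes in brackets. The arcuate peptide list is at the top with a median log2 ratio of 0.65 and the thalamic list at the bottom with -0.60. The lists were chosen with earlier results of these data known.

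Other peptide systems had smaller medians. In the lateral hypothalamus, where arousal and feeding are joined, 9 of 11 genes lay above 1 with a median log2 ratio of 0.23. Its defining peptides, melanin-concentrating hormone (Pmch) and orexin (Hcrt), were at 1.87 and 1.60. The factor Lhx9, which is expressed in orexin neurons and in the thalamus, stood opposite at 0.42. The neuronal pentraxin Nptx2, which clusters AMPA receptors, had probes at 0.64 and 0.74.

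Paraventricular and magnocellular genes, which serve the stress and water balance hormones, had a median log2 ratio of 0.15, with 8 of 9 genes above 1. Corticotropin-releasing hormone (Crh) was at 1.25 and thyrotropin-releasing hormone (Trh) at 1.17, against 0.85 and 0.81 for these genes over no stimulus. All 7 measured ventromedial and dorsomedial genes lay above 1, with a median of 0.20 and Nkx2-2, a homeodomain factor, as the highest at 1.28. Preoptic genes had a median of 0.21, with 7 of 8 above 1. The neurokinin B receptor Tacr3 was at 1.34 and the calcitonin receptor Calcr at 1.40 and 1.28 in its probes, whereas gonadotropin-releasing hormone (Gnrh1) was at 0.91.

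Suprachiasmatic genes, from the circadian pacemaker, were evenly split, 6 above 1 and 6 below, with a median log2 ratio of 0.05. The developmental factors Lhx1 and Six6 were at 1.65 and 1.53 and the output peptide Prok2 at 1.52. The pacemaker's peptide Vip was at 0.91, although it was at 2.24 over no stimulus. Cck, at 0.51 over light touch and 1.94 over no stimulus, was the lowest. Clock genes themselves had a median of 0.03 over 17 genes. The lowest were Npas2, a partner in the clock's activating complex expressed mainly in forebrain, with 3 probes between 0.65 and 0.83, and Bmal1, with probes at 0.73 and 0.79.

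Transcription factors that pattern the hypothalamus had a median log2 ratio of 0.45, and 15 of 16 lay above 1. Only 1 of the 16 had several probes, with a log2 ratio of 0.27. Vax1, which acts at the ventral midline, was at 1.71, and Rax, which marks the floor of the third ventricle and its tanycytes, at 1.67. Nkx2-1, the factor that sets ventral hypothalamic fate, was at 1.48 and Dlx5, a factor of GABA neurons, at 1.43. The exception was Lhx9. On the no-stimulus array the list had a median of 0.06 over 18 genes, with Rax at 1.52, Vax1 at 1.05, Nkx2-1 at 0.97 and Dlx5 at 0.87.

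Receptors and the peptide secretion pathway differed less. Receptors for feeding and energy signals had 17 of 21 genes above 1, with a median log2 ratio of 0.08. Besides Ghsr, the insulin receptor Insr was at 1.76 and the galanin receptor Galr3 at 1.47. Hormone receptors of the endocrine axes had 12 of 13 genes above 1, a median of 0.14 and a highest value of 1.37 for the vasopressin receptor Avpr1b. Secretory granule and processing genes had a median of 0.10, with 11 of 16 above 1. Qpct, which caps peptide ends, was the highest at 1.18, and the convertase Pcsk2 the lowest, with probes at 0.80 and 0.84. No gene of the granule list reached 1.2.

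Imprinted and growth genes with strong hypothalamic expression had 13 of 15 above 1 and a median log2 ratio of 0.21, against -0.01 over no stimulus. Plagl1, a zinc finger factor at the centre of an imprinted network, was at 1.65. Asb4, which is found in arcuate neurons, was at 1.44 and Dlk1, a Notch-related membrane protein, at 1.38. The imprinted RNA H19 was at 0.82. Among natriuretic peptide genes the clearance receptor Npr3 was at 2.86 and its ligand Nppc at 1.29, while the atrial peptide Nppa was at 1.

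Genes that make, load and take up dopamine were above 1. The uptake transporter Slc6a3 was at 2.47, and the vesicular transporter Slc18a2 had concordant probes at 1.73 and 1.70. Tyrosine hydroxylase (Th) was at 1.58, the decarboxylase Ddc at 1.41 and Gch1, which makes the cofactor of Th, at 1.37. The other cofactor enzymes were not among them, with Pts at 0.92 and Qdpr at 0.94, and the receptor Drd3 was at 0.96. Over the 14 genes the median log2 ratio was 0.13, with 8 above 1, and over the 3 of them with several probes it was -0.015. On the no-stimulus array Slc6a3 was at 0.89, Slc18a2 at 1.02 and Th at 1.01.

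The vesicular transporter is shared by the amine neurons, and histamine and serotonin genes held values on both sides of 1. Hdc, which makes histamine in the tuberomammillary nucleus, was at 1.81, while the histamine receptor Hrh3 was at 0.77. Tph2, which makes serotonin in raphe neurons, was at 1.77 and the autoreceptor gene Htr1d at 1.63. On the low side of the serotonin list were the receptor Htr5b at 0.28 and Tph1, the tryptophan hydroxylase of pineal and other non-raphe cells, at 0.372. Over the 13 serotonin genes, 7 lay above 1 and 6 below, with a median log2 ratio of 0.08. The dopamine cells of the hypothalamus and those of the midbrain use the same genes. The midbrain and hindbrain amine list as a whole had 11 of 13 genes above 1 and a median of 0.23, with its region factors Foxa2 at 1.18 and Gata2 at 0.80. The part of adjoining midbrain tissue in these ratios was not tested.

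Genes of the thalamus had the lowest median of the 66 lists, a log2 ratio of -0.60 over 25 measured genes. This rank depends on how the lists were drawn, which was done with earlier results of these data known. Of these, 21 lay below 1, 14 of them 1.5-fold or more below 1, a size reached by 0.928% of all genes. The 4 measured defining genes ranged from 0.38 to 0.53. Shox2, a homeodomain factor, had probes at 0.35 and 0.42, and Tcf7l2, the Wnt effector that marks the thalamus, had 3 probes at 0.53, 0.51 and 0.63. Its relative Lef1 was at 0.49. The zinc finger factors Zic1 and Zic4 were at 0.44 and, over the probes of Zic4, at 0.38 and 0.44. The kinase Prkcd was at 0.44, the axon guidance protein Ntng1 had probes at 0.62 and 0.58, and the exchange factor Vav3 at 0.53 and 0.56. The member with the highest ratio was Slc18a2, which amine neurons also use.

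The same thalamic list had a median of 0.26 on the no-stimulus array, where 23 of 26 genes lay above 1. Prkcd was at 0.44 over light touch and 2.42 over no stimulus, and Shox2 at 0.383 and 2.32. Tcf7l2 was at 0.53 over light touch and 1.78 over no stimulus, and Ntng1 at 0.60 and 1.71. Zic4 and Zic1 had 1.16 and 1.15 over no stimulus, nearer to 1. The amount of thalamus in each tissue piece is not recorded in the labels, and its part in these ratios was not tested.

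**Figure D2:**
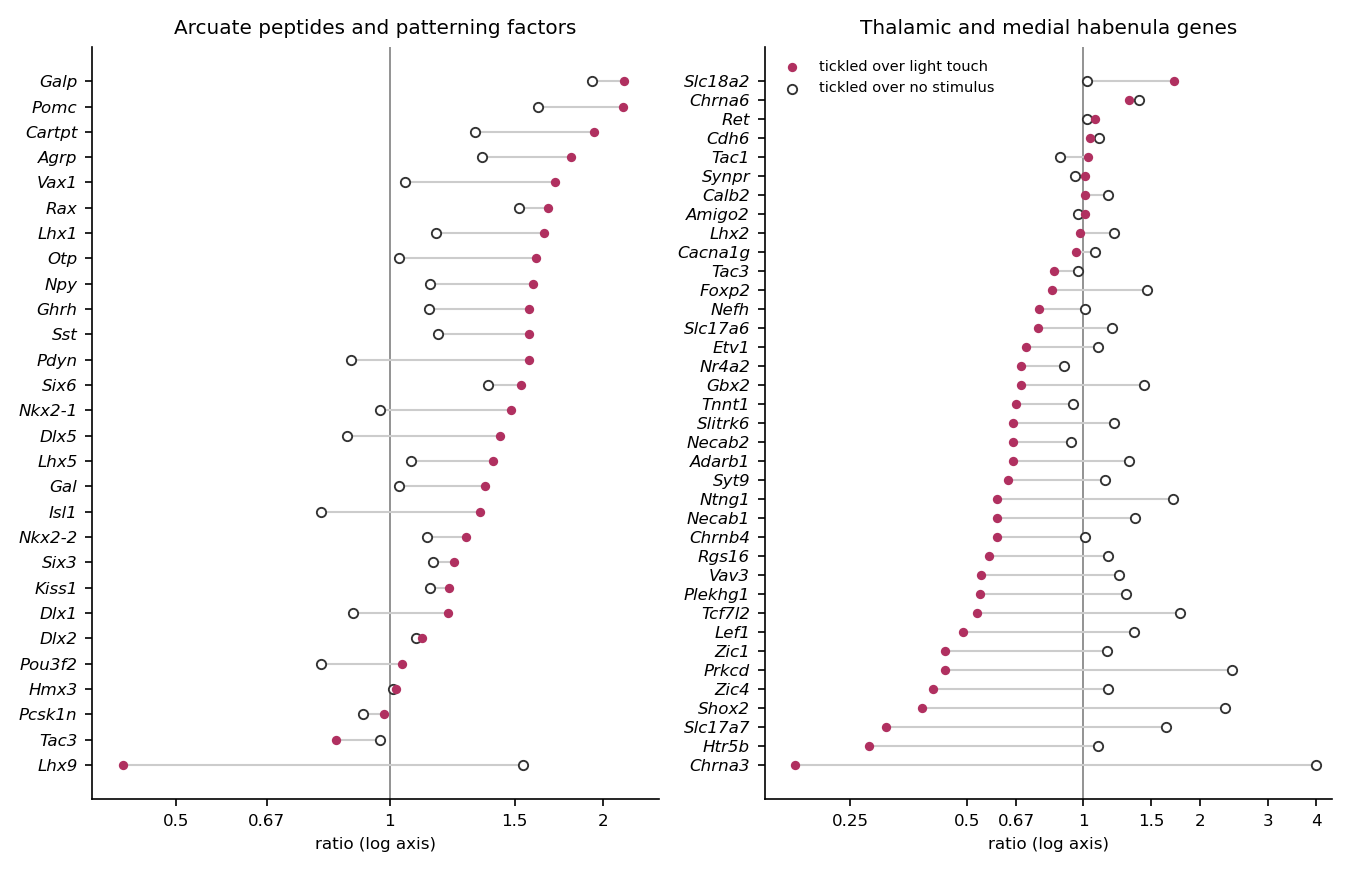
Ratios (log axes) of tickled over light touch (filled) and tickled over no stimulus (open) for genes with a value on both arrays, arcuate peptides and patterning factors on the left, thalamic and medial habenula genes on the right. Shox2, Prkcd and Chrna3 lie well below 1 on the light-touch array and above 2 on the no-stimulus array, and both arrays carried tickled RNA.

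The medial habenula, a small nucleus that adjoins the dorsal thalamus, had a list median log2 ratio of -0.42, with 9 of 14 genes below 1. The nicotinic receptor subunits Chrna3 and Chrnb4, which are joined in receptors of habenular neurons, were at 0.18 and 0.60. Over no stimulus Chrna3 was at 3.99, whereas Chrnb4 was at 1.01. The synaptotagmin Syt9 was at 0.64 and the serotonin receptor Htr5b at 0.28. Slc17a7, the vesicular glutamate transporter of thalamic, cortical and habenular neurons, had probes at 0.28 and 0.34. The subunit Chrna6 stood opposite, at 1.31. Chrnb3, Gpr151 and Pou4f1, also defining genes of the nucleus, had no value. Genes of the lateral habenula had a median of -0.12 over 5 genes.

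Pineal genes went both ways, 7 above 1 and 7 below. The factors Neurod1 and Otx2 were at 0.21 and, by probe, at 0.65 and 0.57, while Crx, a relative of Otx2 that acts with it in pineal and retina, was at 1.72. Asmt, which makes melatonin in its last step, was at 1.2 and Aanat, which acts in the step before, at 1.06. Tph1, the first enzyme of this route, had probes at 0.73 and 0.19. Bsx, which is found in pineal and arcuate cells alike, belongs to both lists.

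Cholinergic genes of the septum and basal forebrain, which lie in front of the hypothalamus, had a median log2 ratio of -0.31, with 7 of 12 below 1. The 4 measured defining genes, all but Chat, ranged from 0.38 to 0.77. The choline transporter Slc5a7 was at 0.38, the vesicular transporter Slc18a3 at 0.45 and the fate factor Lhx8 at 0.61. These genes were also below 1 over no stimulus, Slc5a7 at 0.49, Slc18a3 at 0.43 and Lhx8 at 0.35. Zic5, a septal factor, differed, with 0.59 over light touch and 1.83 over no stimulus. Acetylcholine genes as a whole had 11 of 17 below 1 and a median of -0.12, or 0.041 over the 3 with several probes, and the nicotinic subunit Chrna4, the main partner of Chrnb2 in the brain, was at 0.67. The part of septal tissue was not tested.

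Cortical and hippocampal genes had a median log2 ratio of 0.07, with 14 of 23 above 1, and striatal genes one of 0.02, with 10 above 1 and 10 below. Low members of the cortical list were Slc17a7 and Neurod1, which other regional lists share, Nrn1, a neurite growth protein, at 0.64, and Ptk2b, a calcium-sensitive kinase, at 0.74. The highest was Nptx1, with probes at 1.12 and 1.55. In the choroid plexus list, whose median was -0.04 over 14 genes, the carrier Ttr was at 0.39, Sostdc1 at 0.65 and Otx2 at 0.609, whereas the folate receptor Folr1 was at 1.07. Over no stimulus Ttr was at 0.08 and Sostdc1 at 0.55. Pituitary genes had a median of 0.11 over 11 genes. The highest was Pomc at 2.13, which is also on the arcuate list, and growth hormone (Gh1) was at 1.42. The thyrotropin subunits Tshb and Cga, far above 1 over no stimulus at 9.08 and 7.18, were at 1.08 and 0.833 over light touch.

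Channel genes had ratios below 1 more often than above, where 46.1% of all genes lay below 1. Pan-neuronal genes leaned the same way, with 14 of 22 below 1 and a median log2 ratio of -0.11. Of 36 voltage-gated potassium channel genes 23 lay below 1, and of 31 other potassium and HCN channel genes 21 did, each list with a median log2 ratio of -0.12. Kcnma1, the pore of the large-conductance calcium-activated channel, had 4 probes at 0.58, 0.61, 0.51 and 0.66. Its neuronal auxiliary subunit Kcnmb4 was at 0.63. Kcnc2, a channel of fast-firing neurons, was at 0.58 and the inward rectifier Kcnj12 at 0.59. Another inward rectifier, Kcnj4, was at 1.81 and stood alone at the other end, above Kcnd3, a channel of the transient A-type current, at 1.47. Sodium and calcium channels had 20 of 33 genes below 1, a median of -0.06 and none 1.5-fold or more from 1. The lowest of them were the beta subunit Cacnb3 at 0.77 and the accessory protein Cacng5 at 0.79.

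The release machinery was similar, with 22 of 33 genes below 1 and a median log2 ratio of -0.10. Complexin 1 (Cplx1), which clamps fusion until calcium enters, was at 0.61, and the calcium sensors Syt9 and Syt7 were at 0.64 and 0.69. At the other end was the synapsin Syn3 at 1.22. Of the calcium-binding proteins, Necab1 and Necab2 were at 0.60 and 0.66. In that list 12 of 23 genes lay below 1, near the 46.1% of all genes.

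GABA genes differed by subunit. Gabra4 and Gabrd, which form receptors outside the synapse in thalamus, hippocampus and striatum, were at 0.56 and 0.57, and the GABA-B subunit Gabbr2 was at 0.75. Over no stimulus Gabra4 was at 1.44 and Gabrd at 1.58. Gabrq and Gabre, subunits with prominent hypothalamic expression, were both at 1.15, below the 95th percentile of all genes at 1.25. The probes of Gabre gave 1.02 and 1.29. Over no stimulus Gabrq was at 1.15 and Gabre at 0.737. The synthesis enzyme Gad1 was at 1.18, with its 3 probes between 1.06 and 1.2. The list's median was 0.08, with 13 of 20 above 1. Among glutamate receptors, with a median of -0.02 over 24 genes, the metabotropic receptor Grm4 was the lowest at 0.69, against 1.46 over no stimulus. Noradrenaline genes had a median of -0.14 over 8 genes, with the receptor Adra1b lowest, its 3 probes between 0.62 and 0.70.

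**Figure D3:**
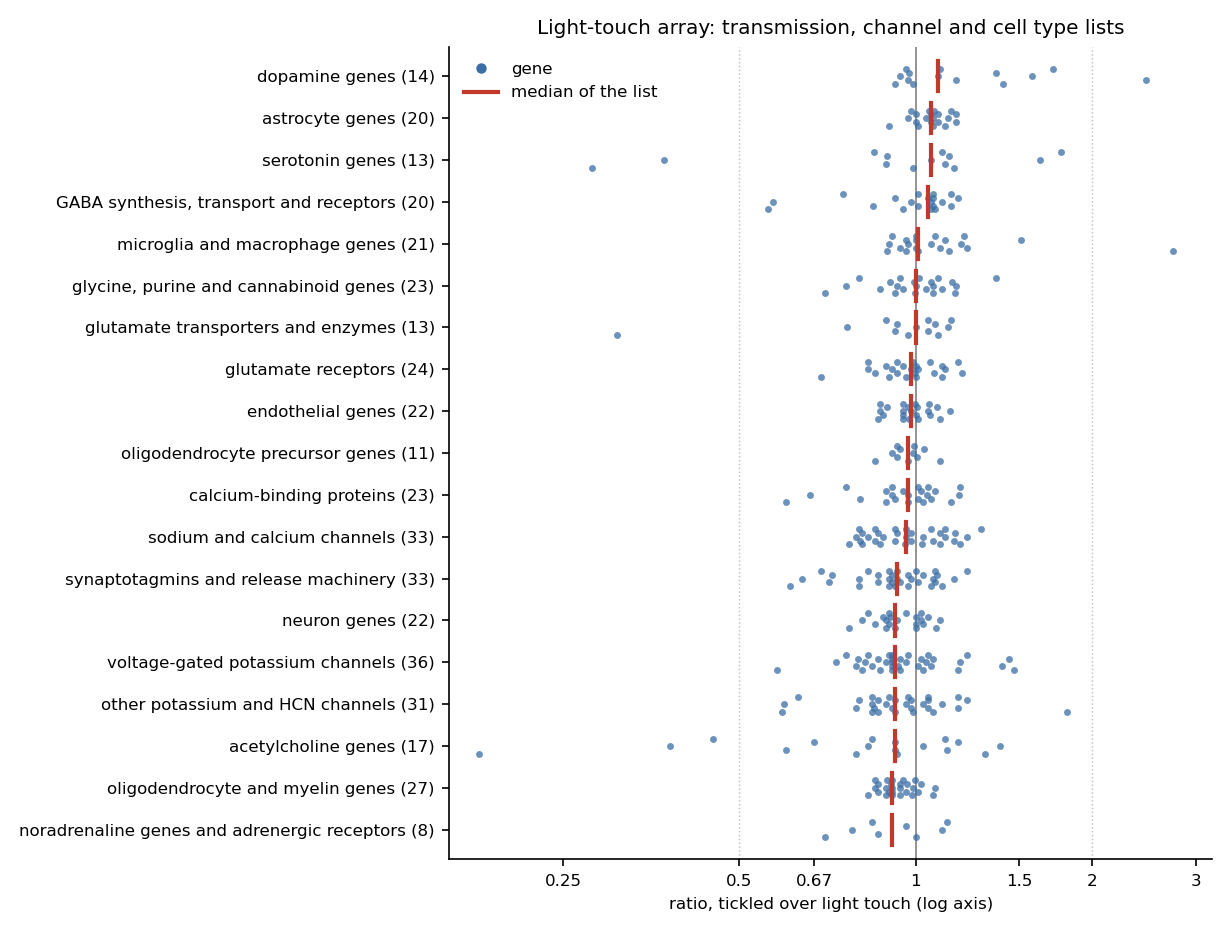
Ratios of tickled over light touch (log axis) for genes of transmission, channel and cell type lists, with 1 point per gene, the list's median as a bar and the number of measured genes in brackets. The dopamine list has a median log2 ratio of 0.13, or -0.015 over its 3 genes with several probes, and the potassium channel lists lie at -0.12.

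Among endocannabinoid genes, 1 low value was repeated over many probes. Napepld, a phospholipase that forms anandamide and related lipids, had 10 probes of 1 accession, every one below 1, from 0.64 to 0.83 with a median of 0.70. Mgll, which degrades the other main endocannabinoid, had probes at 0.72 and 0.80. The receptor gene Cnr1 had 4 probes from 1.03 to 1.34, and the receptor gene Cnr2 was at 1.37 from 1 probe. Over no stimulus Napepld was at 1.24, Mgll at 1.12, Cnr1 at 0.884 and Cnr2 at 1.17. The list of glycine, purine and cannabinoid genes had a median log2 ratio of 0.00, with 11 above 1 and 11 below.

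Signalling genes downstream of receptors included several low values. Rgs16, which shortens G protein signals, was at 0.57, the gamma subunit Gng8 at 0.54 and the related regulator Rgs4 at 0.67 and 0.75 by probe. Over all G protein subunits and RGS proteins 22 of 36 lay below 1, with a median log2 ratio of -0.03. The Wnt pathway list had a median of -0.03 too, and its low members were Lef1, Tcf7l2 and the ligand Wnt4, at 0.64. The secreted modulator Dkk3 was the highest, but its 3 probes gave 1.24, 1.36 and 4.22. Immediate early genes, which follow recent firing, were evenly divided, 10 above 1 and 10 below, with a median of 0.00. Egr4 and Nr4a1 were at 1.22 and 1.21, Nr4a2 at 0.69 and Nr4a3 at 0.68 and 0.74 by probe.

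Thyroid hormone genes had 12 of 16 above 1 and a median log2 ratio of 0.14. Dio3, which inactivates thyroid hormone, was at 2.46 over light touch, against 0.427 over no stimulus. Retinoid genes had a median of 0.15, with 11 of 15 above 1, and the retinoic acid synthesis enzyme Aldh1a2 was at 1.65 and the binding protein Crabp1 at 1.51. Aldh1a2 is also a meningeal gene, and the meningeal and matrix list had a median of 0.07 over 29 genes, with the laminin Lama1 at 2.59. In the stress axis list, with a median of 0.03, the glucocorticoid-responsive factor Zbtb16 was at 1.64 and the phosphatase Dusp1 at 0.73.

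Among cell type lists, some leaned to 1 side and others did not. Oligodendrocyte and myelin genes had 23 of 27 below 1, with a median log2 ratio of -0.14, and the 4 measured defining genes ran from 0.86 to 0.89. Astrocyte genes had 15 of 20 above 1, with a median of 0.09, led by Slc14a1 and Itih3 at 1.17. Ependymal and cilia genes had 15 of 17 above 1 and a median of 0.15, with the axoneme protein Spag16 at 1.56, and tanycyte genes 14 of 17 and a median of 0.11. Pan-neuronal genes had 14 of 22 below 1, with a median of -0.11 and the neurofilament genes Nefh and Nefl at 0.77 and 0.81. Microglia genes had 11 of 21 above 1 and 8 below, with a median of 0.01, and endothelial genes 8 of 22 above 1 and 13 below, with a median of -0.03. In the microglia list Igsf6 was at 2.75 and Lyve1, a gene of border macrophages and lymphatic vessels, at 1.51.

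Genes that most cells use stayed near 1. Ribosomal protein genes had a median log2 ratio of 0.01 over 64 genes, proteasome genes 0.01 over 30 and oxidative phosphorylation genes -0.03 over 40. Interferon and antigen presentation genes had 18 of 25 below 1 with a median of -0.03, against 21 of 25 above 1 and a median of 0.16 over no stimulus. Ifit2 was at 0.775 over light touch and 1.31 over no stimulus, and Isg15 at 0.79 and 1.2, while Irf2 was at 2.09 and 2.10. Odorant and vomeronasal receptors, the large family of the nose, had 248 of 339 above 1 and a median of 0.11. Of them 18 lay at 1.5 or more, a size reached by 1.57% of all genes. The lean was similar over no stimulus, with 229 of 332 above 1 and a median of 0.10. Members of this family are alike in sequence, and their single values are uncertain.

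Agreement between probes could be examined for the 4226 genes with 2 or more, or 36% of all genes. The SD of a probe around its gene was 0.18 log2 units, or 1.13-fold, and 0.13 log2 units for probes of the same accession over 2751 accessions. All probes lay within 1.2-fold of each other in 3165 of these genes (74.9%), within 1.5-fold in 4002 (94.7%) and within 2-fold in 4181 (98.9%). For the remaining 7519 genes 1 probe is the whole evidence. This spread covers probes on 1 array and not animals or labelling. Probes of 1 accession may be repeat spots of 1 sequence, since probe sequences were not used here.

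Probe agreement differed between the low and the high side. Of the 109 genes 1.5-fold or more below 1, 21 had several probes (19.3%), and in 13 of them every probe was past that size. Of the 184 genes at 1.5 or more, 11 had several (5.98%), and in 1, Slc18a2, every probe was past it. Low genes with concordant probes, beyond those above, included Cpne4, a calcium-dependent membrane-binding protein, at 0.45 and 0.50, the kinase Prkcq at 0.56 in both probes and the matrix protein Tnc at 0.59 and 0.50. Sphkap, a kinase-anchoring protein, had 0.46 and 0.63. On the high side, the protease Prss23 had 1.49 and 1.51 and the actinin-binding LIM protein Pdlim3 1.43 and 1.44. Of the 41 genes at 2 or more, the only 1 with several probes was the protease inhibitor Spint2, at 1.33 and 3.08.

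**Figure D4:**
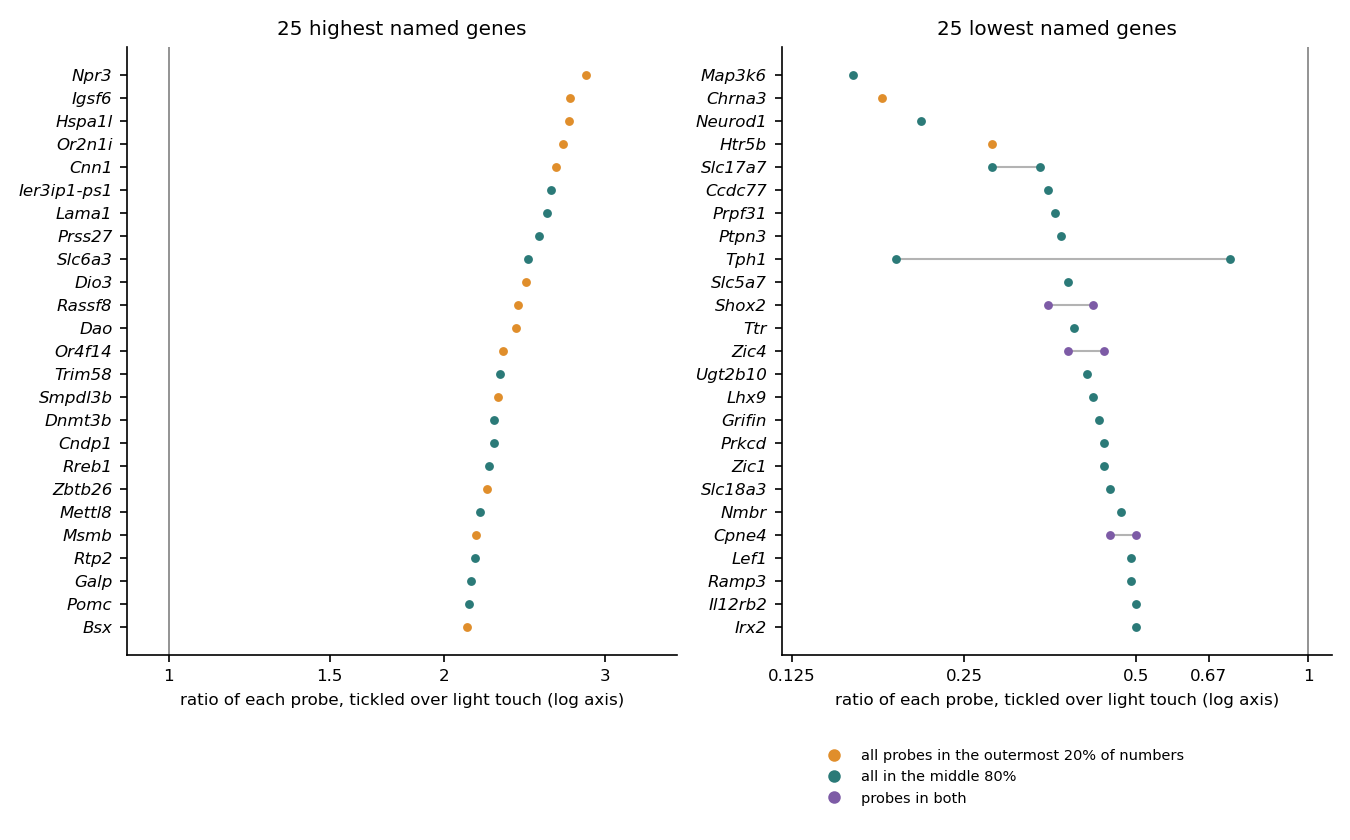
Ratio of each probe, tickled over light touch (log axes), for the 25 highest and 25 lowest genes with a descriptive symbol, coloured by where the probes lie in the order of probe numbers. Slc17a7, Shox2, Zic4 and Cpne4 have pairs of probes that lie close together, and those of Tph1 are 0.73 and 0.19.

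High values also followed the order of probe numbers. Among all genes 13.3% had all their probes in the outermost 20% of numbers, 10% at each end. Among the 184 genes at 1.5 or more 48.4% did, and among the 41 at 2 or more 65.9%. Among genes 1.5-fold or more below 1 the share was 11%. Outer probes had a median log2 ratio of 0.07 and an SD of 0.27, middle probes one of 0.00 and an SD of 0.21. Of the peptide and amine genes, the probes of Pomc, Galp, Cartpt, Agrp, Pdyn, Hcrt, Hdc, Tph2 and Slc6a3 lay in the middle 80%. Those of Npy, Sst, Pmch, Th, Bsx, Otp and Ghsr lay in the outer 20%. Other genes named above with their only probe there included Npr3, Igsf6, Dio3, Irf2, Kcnj4, Insr, Crx, Lhx1, Htr1d and Kcnd3 on the high side. On the low side they included Chrna3, at 0.18, Htr5b, at 0.28, Gng8, at 0.54, and Gabrd, at 0.57. Kcnmb4, at 0.63, Syt9, at 0.64, and Cacnb3, at 0.77, were also among them. With the middle 80% of numbers alone, the median log2 ratio was 0.65 over 11 arcuate peptides, -0.61 over 24 thalamic genes, 0.36 over 12 patterning factors, 0.25 over 6 arcuate identity genes, -0.25 over 9 habenular genes and -0.04 over 10 suprachiasmatic genes. The part of probe position in these values was not tested.

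Some genes had many probes, and 27 had 8 or more. Their probe SD was 0.03 to 0.32 log2 units, with a median of 0.07. Napepld had the lowest median of them. Ndfip2, an adaptor for ubiquitin ligases, had 10 probes from 0.87 to 0.92, and Ldha, which makes lactate, 10 probes from 1.12 to 1.23, in each gene from 1 accession. The calcium buffer Calb1 had 14 probes from 0.86 to 1.03, of which 12 lay below 1. Med16 had 10 probes from 0.93 to 0.99. The nucleoside transporter Slc28a2 was the least uniform, with 11 probes of 2 accessions from 0.88 to 1.67.

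**Figure D5:**
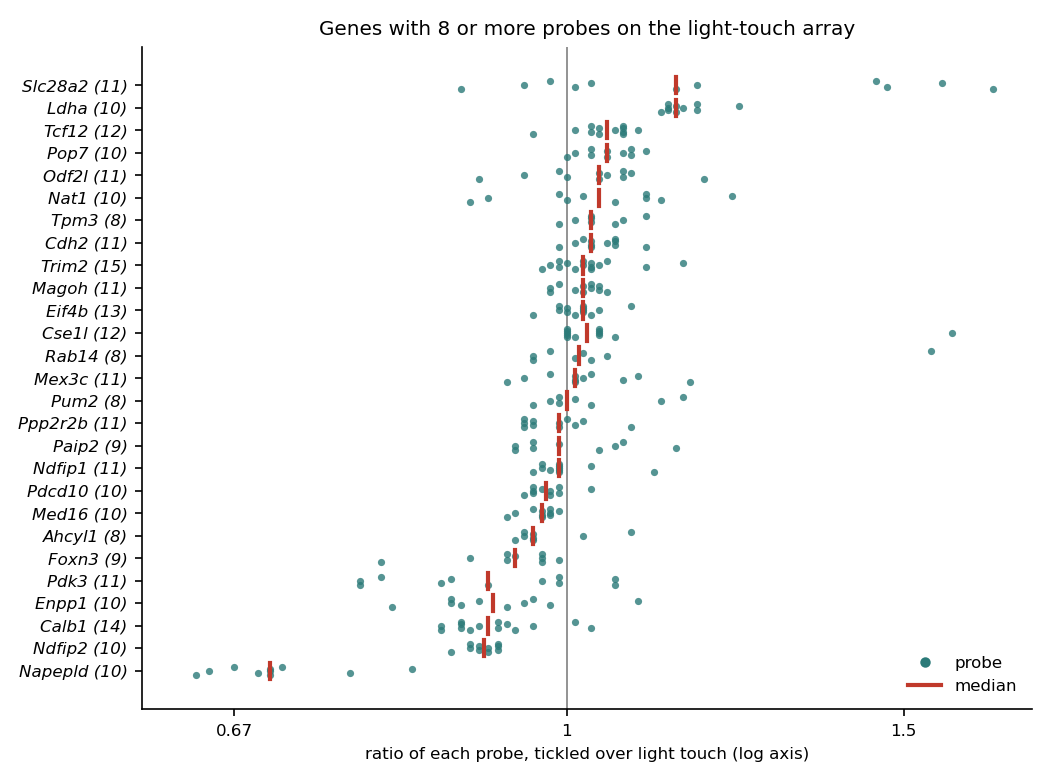
Ratio of each probe, tickled over light touch (log axis), for the 27 genes with 8 or more probes, with the median as a bar and the number of probes in brackets. The 10 probes of Napepld lie between 0.64 and 0.83, and those of Ldha between 1.12 and 1.23.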

How the data were processed

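Total RNA from RNAlater-preserved hypothalamus was amplified to aminoallyl cRNA and dye-coupled (Cy3 or Cy5), as the labels' protocols describe. The authors deposited a linear ratio per probe and array, to 2 decimals, with a median of 1.00. Scanner, background correction, normalization, and the rule for empty probes were not given in the sources used here, nor is the numerator. Probes were named through the platform annotation (23535 with 1 symbol, 48 with several, 20707 unnamed). Of the named probes 23488 had an Entrez identifier in the RefSeq table of GRCr8, and 1 symbol was updated. A gene's value is the median log2 ratio of its probes.

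With 1 array there was no test, and genes were counted by size. The members and the 66 gene lists were chosen with earlier results of these data known, and lists share genes. Each list is described by its counts and median, with the values over all genes given once as background. Genes were named if among the 25 highest or lowest, the 15 highest or lowest with several concordant probes, the 10 with the least concordant probes, nearest to a size limit, or the 3 highest or lowest or 1.5-fold members of a list. Counting was run on simulated probes with large known shifts and no effect of position, which checks the code only. Alternatives were the mean of the probes, the middle 80% of probe numbers, a running median over 501 probes subtracted, and genes with 2 or more probes. Promoter windows came from RefSeq. Python 3.11.15, numpy 2.4.6, pandas 2.3.3 and matplotlib 3.10.9 were used.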

Additional observations from a re-analysis of the deposited data

How the results depend on the processing

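The count of genes at a ratio of 2 or more was 41, and 14 with the middle 80% of probe numbers, 27 with the running median subtracted and 1 among genes with 2 or more probes. At 1.5 or more there were 184 genes, 101 with the middle 80% and 11 with 2 or more probes. Genes at 0.5 or less numbered 26, and 5 with 2 or more probes, and genes 1.5-fold or more below 1 numbered 109, and 21. The smaller counts with 2 or more probes come in part from fewer genes, 4226 in place of 11745. The SD of probes of a gene was 0.154 log2 units with the middle 80%, against 0.18. A list median was counted as steady if its move stayed within a limit. The limit was the probe SD, 0.18 log2 units, over the square root of the number of list genes left under that setting. Lists that kept fewer genes thus had a wider limit. Of 66 medians, 64 were steady with the mean of the probes, 60 with the running median subtracted and 50 with the middle 80%. With 2 or more probes 35 of 48 were. There, the dopamine median was -0.015 and the acetylcholine median 0.041, each over 3 genes and on the other side of 0. Several named genes changed side with the middle 80%. Serp1 went from 1.648 to 0.96 because its other probe, at 2.83, lay outside. Among the others, Crym went from 1.208 to 0.93, Tagln from 1.18 to 0.96 and Sim2 from 0.976 to 1.27. No paired analysis was possible because each comparison had 1 array. Signal over background is unknown, so dim probes could not be left out.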

Other observations

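Of the probes with a value on the light-touch array, 12098 had no single gene symbol and entered no gene value. Their ratios ran from 0.12 to 4.13, and 49 (0.405%) lay at 2 or more and 17 (0.141%) at 0.5 or less.

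The genes whose probes were least alike included Tph1, at 0.73 and 0.19, Dkk3, at 1.24, 1.36 and 4.22, and Serp1, at 0.96 and 2.83. In all, 45 genes had probes more than 2-fold apart. Which transcript each probe reads was not examined.

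Map3k6, a stress-responsive kinase, had the lowest ratio of all named genes, 0.16 from 1 probe in the middle 80% of numbers, and had no value on the no-stimulus array.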
